A study of Mus musculus with 6 samples.

Results

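The 10 genes described here handle adenosine: Entpd1 and Nt5e make it outside the cell, Ada, Adk and Pnp break it down or salvage it, Dpp4 is a surface peptidase known as the partner of the ADA enzyme in humans, Slc29a1 carries adenosine across the membrane, and Adora2a, Adora2b and Adora3 are its receptors. They were found by their symbols among the 60832 genes of the count table, and all 10 were present and passed the filter on low counts. Ada was picked because it passed the adjusted threshold of 0.05 with DESeq2 in these libraries, and the other 9 genes were named around it by function with earlier results of these data known. The group differences of the 10 genes are therefore given as a description and support nothing.

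The libraries were RNA-seq of mouse liver sinusoidal endothelial cells (LSECs), the cells that line the liver's blood sinusoids. They came from xenografts of the human colorectal cancer cell line HCT116, grown as colorectal cancer liver metastases (CRCLM) in the livers of male BALB/c nude mice, which have few T cells. The mice were 4 to 6 weeks old at purchase, before the tumor cells were injected, and so older when the LSECs were taken. Of the 6 libraries, 3 were of LSECs from bevacizumab-sensitive xenografts (sensitive group) and 3 of LSECs from bevacizumab-resistant xenografts (resistant group). By the study's methods the HCT116 resistant xenografts were generated in mice given bevacizumab, an antibody against VEGF-A, at 10 mg/kg, 2 injections a week, for 7 weeks in its Methods and 42 days in its Results, and vehicle mice received IgG. The cells of both groups were isolated with anti-CD146 beads, and the labels give 24 h of culture. The comparison asks how LSECs of the resistant xenografts differ from those of the sensitive ones, and the labels do not say whether the 3 libraries of a group came from separate mice, so errors measure only the spread between these samples, which may be technical.

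Total counts per library were between 17599326 and 20726684, and 3 counts correspond to between 0.145 and 0.170 CPM (counts on a scale on which all libraries have the same total), which sets a floor for counting error alone. The LSEC label was checked against marker genes. The CPM of 15 LSEC markers summed to between 1100 and 1762 in the 6 libraries, and that of 14 pan-endothelial markers to between 85.6 and 537. In the same libraries 18 macrophage and Kupffer cell markers summed to between 25470 and 37640 CPM, so the markers of another liver cell type stood far above those of the labelled one in all 6. The sensitive replicate 2 library stood apart, with a median correlation of 0.872 with the other libraries against 0.957 to 0.963 for each of the others, and the log2 fold changes of the 10 genes are given with and without it. In such bulk samples fewer cells of a type and less RNA per cell cannot be told apart.

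Adenosine is a signal of tissue stress. ATP that leaves damaged or hypoxic cells is cut outside the cell to AMP by CD39 (Entpd1) and then to adenosine by CD73 (Nt5e). Adenosine is cleared by deamination to inosine by adenosine deaminase (Ada), by phosphorylation back to AMP by adenosine kinase (Adk), and by uptake through the equilibrative transporter ENT1 (Slc29a1). In tumors and inflamed liver it is known to restrain immune cells and to act on endothelial barrier and growth through its G protein-coupled receptors.

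The promoters of Ada and Adk are shown because these enzymes compete for adenosine inside the cell and differed in how far the groups stood apart. Promoter sequences of RefSeq on GRCm38.p6 were held for 9 of the 10 genes, and Adora2a had no entry. The 250 bases before the start site are printed 5′ to 3′ on the gene's own strand, and capitals mark a GC box (GGGCGG on either strand).
Ada, chr2:163750240-163750489, minus strand: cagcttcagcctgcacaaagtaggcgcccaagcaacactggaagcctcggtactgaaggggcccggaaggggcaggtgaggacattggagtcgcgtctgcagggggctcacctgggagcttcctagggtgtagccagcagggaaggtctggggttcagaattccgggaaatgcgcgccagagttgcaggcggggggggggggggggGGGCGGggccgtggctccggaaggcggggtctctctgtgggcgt
Adk, first of its start sites, chr14:21052324-21052573, plus strand: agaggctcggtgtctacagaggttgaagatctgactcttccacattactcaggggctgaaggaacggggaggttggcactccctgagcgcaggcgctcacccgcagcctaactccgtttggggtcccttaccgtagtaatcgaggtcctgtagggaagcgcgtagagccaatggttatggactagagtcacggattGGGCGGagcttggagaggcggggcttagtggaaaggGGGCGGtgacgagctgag
The Ada promoter held 1 GC box, at the end of a run of G, and the printed Adk promoter held 2. The window of the second Adk start site held 3. G and C made up 67.2% of the Ada window and 58.8% of the Adk window, against a median of 52.4% over all promoters of this length. A GC box was present in 32.7% of all promoters, so its presence is a description of these windows and not a binding site. The Adora2b window held 6, the Nt5e window 4, the Pnp window 1, and those of Dpp4, Entpd1 and Adora3 held 0. Slc29a1 had several start sites, whose windows held from 0 to 5. The full cAMP response element, TGACGTCA on either strand, was in 0 windows of the 9 genes and in 1.55% of all promoters. Its half-site TGACG, which overlaps the full element, was absent from the Ada window and present once in the Adk window printed above, where it follows the last GC box, and in 17.8% of all promoters. The half-site was also present in the Entpd1 windows and in a window of Slc29a1. The hypoxia response core, searched as ACGTG and as GCGTG on either strand, had 0 matches in the printed windows of Ada and Adk and was in 16.6% and 28.2% of all promoters. As GCGTG it had 1 match each in the windows of Nt5e, Adora2b, the second Adk start site and the first Entpd1 start site. Several Slc29a1 windows held matches, and those of Pnp, Dpp4 and Adora3 held 0.

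Ada was the gene of the 10 with the clearest separation of the groups. The enzyme turns adenosine into inosine and deoxyadenosine into deoxyinosine, and its loss is known for immunodeficiency and a rise of adenosine in tissues. Sensitive replicates 1, 2 and 3 held 23.1, 42.2 and 27.0 CPM, and resistant replicates 1, 2 and 3 held 105.8, 92.8 and 102.0 CPM. All 3 resistant libraries lay above all 3 sensitive ones, with a gap wider than the spread within either group, and the resistant libraries were close to each other. The sensitive mean was 30.7 ± 10.1 CPM (SD, n = 3), and the resistant mean was 100.2 ± 6.68 CPM (SD, n = 3), 3.26-fold higher. On the log2 scale of edgeR's fit the difference was 1.60 with a standard error of 0.32. Without sensitive replicate 2, the library with the highest sensitive value, it was 2.00 with a standard error of 0.14. Of the 3310 tested genes at least as abundant as Ada, 27 had a log2 fold change of at least its size in either direction, with Ada itself in both counts. Of all 15474 tested genes, 517 did, Ada included. Ada lies at chr2:163726584-163750239 (GRCm38), on the minus strand, with 2 annotated transcripts, and the counting assigned it between 453 and 2193 reads per library.

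Across all 15474 genes tested, the quasi-likelihood test of edgeR, adjusted after Benjamini and Hochberg, called 0 genes (0% of those tested) at an adjusted p under 0.05, and 0 of the 10 adenosine genes. The smallest adjusted p of any gene was 0.940, and that was also the value of Ada. At an unadjusted p under 0.05, 476 genes passed, 83 of them higher in the resistant group (0.536% of those tested) and 393 lower (2.54%). Of the 10 adenosine genes 1 was among the higher genes, Ada, and 1 among the lower, Adora2a. With DESeq2 on the same counts, 24 of 15448 genes with an adjusted p passed (0.155%), Ada among them with an adjusted p of 0.0198, the kind of result it was picked for. Groups that did not overlap in CPM were found for 5.01% of all tested genes with the resistant group higher and for 3.38% with it lower, and among the 10 genes for Ada and Adora2a, 1 in each direction. Nothing is read from these shares, since the genes were chosen on the same contrast.

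**Figure D1:**
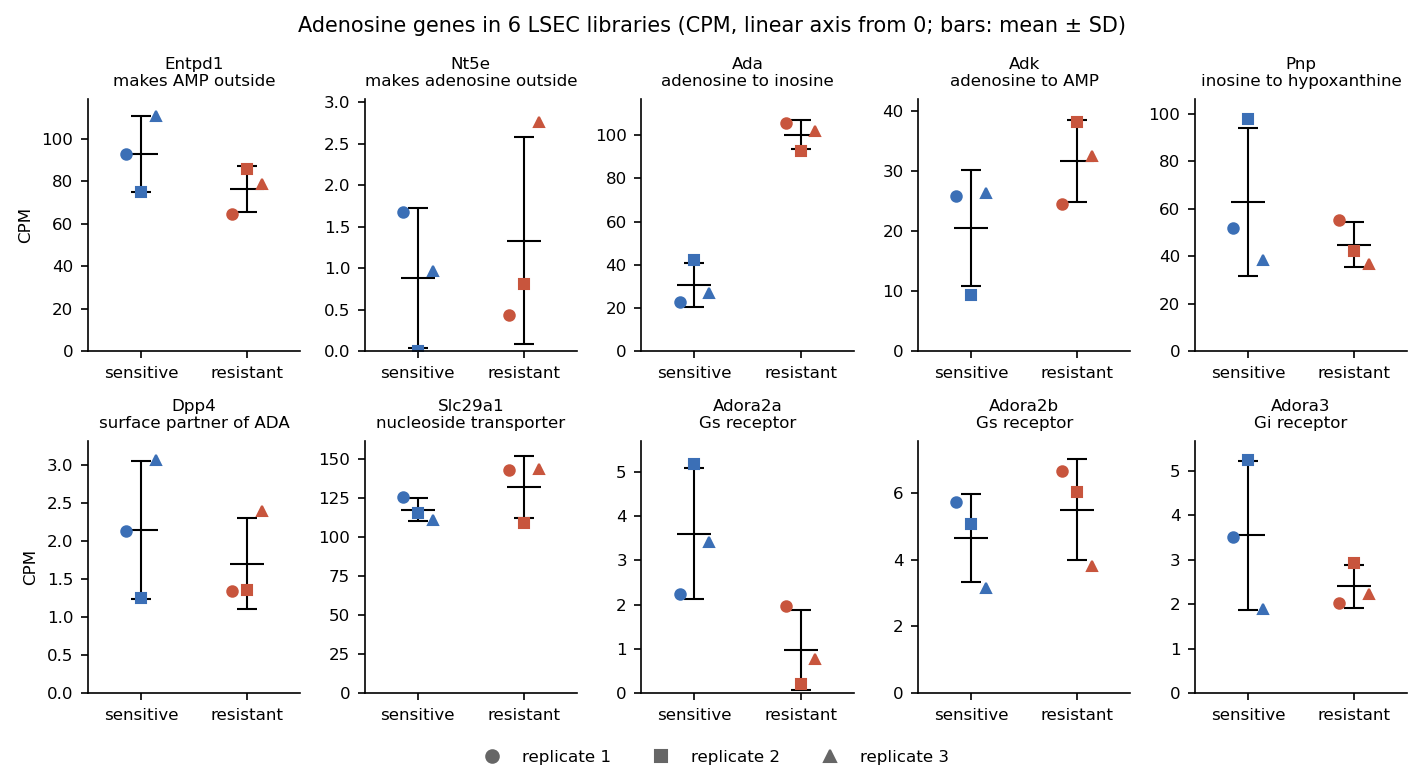
CPM of each adenosine gene (y axis, linear from 0, scaled per gene) in the 3 sensitive and 3 resistant libraries (x axis), with the replicate number as the symbol and the mean and SD as bars. Ada runs from 23.1 to 42.2 in the sensitive group and from 92.8 to 105.8 in the resistant group, Adora2a is the only gene whose resistant libraries all lie below the sensitive ones, and the groups of the other 8 overlap.

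Adk phosphorylates adenosine to AMP and is the main intracellular route of salvage at low adenosine. It stood at 25.8, 9.32 and 26.3 CPM in sensitive replicates 1, 2 and 3 and at 24.6, 38.1 and 32.4 CPM in resistant replicates 1, 2 and 3. The groups overlapped, and the low sensitive mean of 20.5 ± 9.67 CPM (SD, n = 3) came from replicate 2. The resistant mean was 31.7 ± 6.82 CPM (SD, n = 3). The log2 fold change was 0.61 with a standard error of 0.38, and 0.29 with a standard error of 0.23 without sensitive replicate 2. Adk lies at chr14:21052574-21448569 on the plus strand.

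Pnp, purine nucleoside phosphorylase, takes the inosine that ADA makes on to hypoxanthine. Its CPM was 52.1, 97.8 and 38.3 in sensitive replicates 1, 2 and 3 and 55.2, 42.2 and 36.9 in the resistant ones. Sensitive replicate 2 was high and the other 5 libraries shared a range. The log2 fold change was -0.60 with a standard error of 0.41, and -0.009 with a standard error of 0.19 without that library, so the difference rested on it. Pnp lies at chr14:50931082-50965237 on the plus strand and shares 718 exon bases on its own strand with Gm49342, which had 0 counts in all 6 libraries, so the division of reads between these genes is uncertain.

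Per gene length, Ada and its partners can be set beside each other with the deposited FPKM (reads per kilobase of gene and scaled to the library total). The ratio of Ada to Pnp was 0.881, 0.857 and 1.40 in sensitive replicates 1, 2 and 3 and 3.81, 4.37 and 5.49 in resistant replicates 1, 2 and 3, with no overlap. The ratio of Ada to Adk was 3.81, 19.3 and 4.37 in the sensitive libraries and 18.4, 10.4 and 13.4 in the resistant ones. Here the groups overlapped, because sensitive replicate 2 had both the highest sensitive Ada and the lowest Adk. Ada stood at 0.368, 0.731 and 0.487 of the Slc29a1 level in the sensitive libraries and at 1.48, 1.71 and 1.42 of it in the resistant ones. Ada was thus below the transporter in every sensitive library and above it in every resistant one. Since Ada was chosen on this contrast, these ratios carry its own difference and are no further result.

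**Figure D2:**
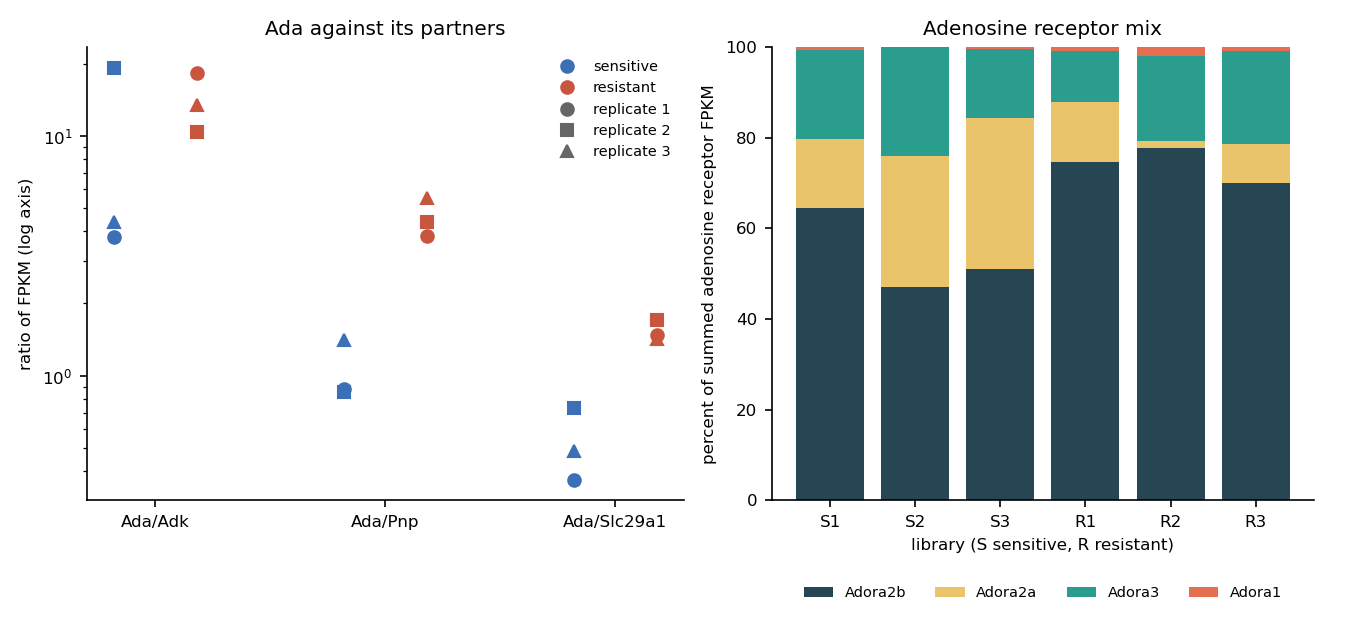
Left, ratios of the FPKM of Ada to that of Adk, Pnp and Slc29a1 in each library (y axis, log scale). Right, the percent of summed adenosine receptor FPKM held by each receptor gene in each library (stacked bars, S sensitive, R resistant). Ada/Pnp and Ada/Slc29a1 separate the groups, Ada/Adk does not because of sensitive replicate 2 at 19.3, and Adora2b takes from 47.0% to 64.4% of the receptor sum in the sensitive libraries and from 70.0% to 77.6% in the resistant ones. The ratios carry the difference on which Ada was chosen.

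The extracellular enzymes that make adenosine were present at very unequal levels. Entpd1 (CD39), which strips phosphates from ATP and ADP and is known on endothelium, macrophages and regulatory lymphocytes, had 93.1, 75.0 and 110.8 CPM in sensitive replicates 1, 2 and 3 and 64.8, 85.7 and 78.9 CPM in resistant replicates 1, 2 and 3. The groups overlapped, with means of 93.0 ± 17.9 and 76.4 ± 10.7 CPM (SD, n = 3 each) and a log2 fold change of -0.34 with a standard error of 0.22, which was -0.41 without sensitive replicate 2. Nt5e (CD73), which makes the adenosine itself from AMP, had 33, 0 and 20 counts in the sensitive libraries and 9, 16 and 53 in the resistant ones. That is 1.68, 0 and 0.973 CPM in the sensitive group and 0.434, 0.809 and 2.76 CPM in the resistant group, and a count of 0 allows up to 0.170 CPM in sensitive replicate 2. Its log2 fold change of 0.60 had a standard error of 1.22, was 0.026 without sensitive replicate 2 and turned to -0.49 without resistant replicate 3, so no direction is given. Where Nt5e had counts, the FPKM of Entpd1 was between 44.1 and 229.9 times that of Nt5e. Entpd1 lies at chr19:40612366-40741602 and Nt5e at chr9:88327197-88372092, both on the plus strand.

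Slc29a1 (ENT1) moves adenosine down its gradient in either direction across the membrane. It was abundant and even, at 125.6, 115.5 and 111.1 CPM in sensitive replicates 1, 2 and 3 and 142.8, 108.9 and 143.5 CPM in resistant replicates 1, 2 and 3. The resistant libraries lay both at the bottom and at the top of the range, and the log2 fold change was 0.09 with a standard error of 0.19, or 0.16 without sensitive replicate 2. Slc29a1, at chr17:45585200-45599606 on the minus strand, shares 275 exon bases with the antisense gene Gm17080, which had at most 20 counts in any library. Whether strand was used in counting is not given in the sources used here.

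Dpp4 (CD26) is a surface peptidase that binds ADA in humans, while mouse ADA is known to bind it poorly. It was low, at 2.14, 1.25 and 3.07 CPM in sensitive replicates 1, 2 and 3 and 1.35, 1.37 and 2.39 CPM in the resistant ones. The groups overlapped, with a log2 fold change of -0.38 and a standard error of 0.51. Leaving out 1 library moved it between -0.71, without resistant replicate 3, and -0.047, without sensitive replicate 3, and it was -0.61 without sensitive replicate 2. Dpp4 lies at chr2:62330073-62412231 on the minus strand.

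Of the receptors, Adora2a and Adora2b act through Gs to raise cAMP, and Adora3 acts through Gi to lower it. Adora2a, the high-affinity receptor that restrains leukocytes, was low, and its groups were apart in the direction opposite to Ada. It had 44, 91 and 70 counts in sensitive replicates 1, 2 and 3 and 41, 4 and 15 counts in resistant replicates 1, 2 and 3. The corresponding CPM was 2.24, 5.17 and 3.41 in the sensitive group and 1.98, 0.202 and 0.780 in the resistant group. The groups did not overlap, but sensitive replicate 1 and resistant replicate 1 lay next to each other, and the resistant values were spread almost as widely as their mean of 0.987 ± 0.906 CPM (SD, n = 3). The sensitive mean was 3.61 ± 1.48 CPM (SD, n = 3). The log2 fold change was -2.00 with a standard error of 0.80, -1.54 without sensitive replicate 2, and between -2.95 and -1.53 when 1 library was left out. On log2(FPKM + 1), which understates changes of low genes, it was -0.72. Adora2a lies at chr10:75316877-75334784 on the plus strand.

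Adora2b, the low-affinity receptor known in endothelium and under hypoxia, was the leading adenosine receptor per gene length in all 6 libraries. It had 5.70, 5.06 and 3.16 CPM in sensitive replicates 1, 2 and 3 and 6.66, 6.02 and 3.80 CPM in resistant replicates 1, 2 and 3. The groups overlapped between 3.80 and 5.70 CPM. The log2 fold change of 0.17, with a standard error of 0.39, became 0.32 without sensitive replicate 2 and -0.058 without sensitive replicate 3. Adora3 had 3.51, 5.23 and 1.90 CPM in the sensitive libraries and 2.03, 2.93 and 2.24 CPM in the resistant ones. Its groups overlapped, and the log2 fold change of -0.65 (standard error 0.52) was -0.15 without sensitive replicate 2. Adora2b lies at chr11:62248984-62266453 and Adora3 at chr3:105870858-105908926, both on the plus strand, and Adora3 shares 779 exon bases with Tmigd3, which had at most 2 counts.

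Among the adenosine receptors, Adora2b held 64.4%, 47.0% and 51.1% of the summed FPKM in sensitive replicates 1, 2 and 3 and 74.6%, 77.6% and 70.0% in resistant replicates 1, 2 and 3. The share of Adora2a was 15.2%, 29.0% and 33.2% in the sensitive libraries and 13.4%, 1.57% and 8.67% in the resistant ones. Adora3 took between 11.2% and 24.0% with overlapping groups. Adora1, the fourth receptor, did not pass the filter and reached 2.08% at most, with 0 to 10 counts per library. The shares of Adora2b did not overlap between the groups, while its CPM given above did.

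Ordered by the median FPKM over the 6 libraries, Ada came first at 33.7, followed by Slc29a1 at 30.1, Entpd1 at 14.7, Pnp at 11.8, Adk at 3.06, Adora2b at 2.92, Adora3 at 0.693, Adora2a at 0.689, Dpp4 at 0.277 and Nt5e at 0.104. The ranges of Ada and Slc29a1 overlapped, as did those of Entpd1 and Pnp, of Adk and Adora2b, and of each neighboring pair from Adora3 to Nt5e. They were apart between Slc29a1 and Entpd1, between Pnp and Adk, and between Adora2b and Adora3. The range of Ada, from 11.5 to 52.9, was wider than that of its neighbor Slc29a1, from 27.2 to 35.8, and spanned it. It also overlapped those of Entpd1 and Pnp. The median of Ada lay between the groups, at 11.5 to 21.1 in the sensitive libraries and 46.4 to 52.9 in the resistant ones. Its first place thus rests on the group in which it was chosen as high. In the sensitive libraries Ada was below Slc29a1 in each, below Entpd1 in replicates 1 and 3 and below Pnp in replicates 1 and 2.

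**Figure D3:**
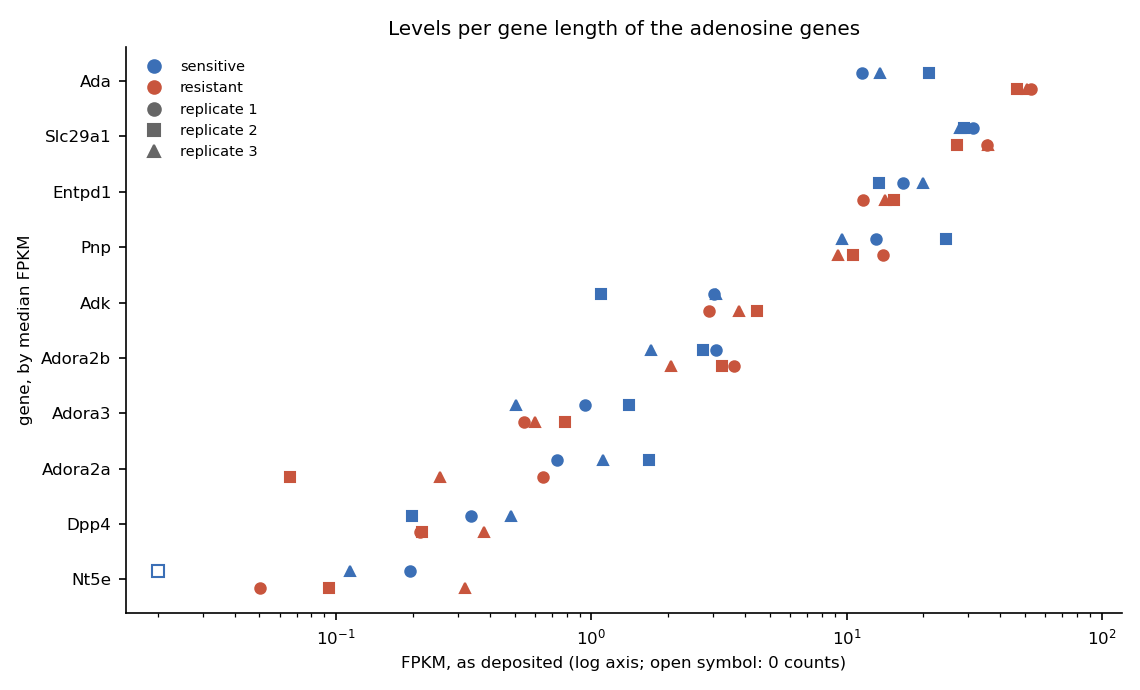
Deposited FPKM of the adenosine genes (x axis, log scale) in the 6 libraries, ordered by median, with sensitive libraries above and resistant ones below each gene's line. The genes span from Nt5e, at 0 in sensitive replicate 2 (open symbol), to Ada at 52.9 in a resistant library, and Ada is the gene with a clear step between the colors among the more abundant ones.

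Group differences under up to 18 alternatives, with Nt5e and Adora2a not tested in 1 of them, kept their sign for 8 of the 10 genes. The exceptions were Nt5e, at -0.009 with sample weights in limma-voom and -0.49 without resistant replicate 3, and Adora2b, at -0.058 without sensitive replicate 3. For Ada the log2 fold change lay between 1.38 and 2.00 when 1 library was left out, and between 1.57 and 2.07 under the other settings. Entpd1 ranged from -0.45 to -0.20 with 1 library left out, and Slc29a1 from 0.02 to 0.19, the narrowest ranges of the 10.

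**Figure D4:**
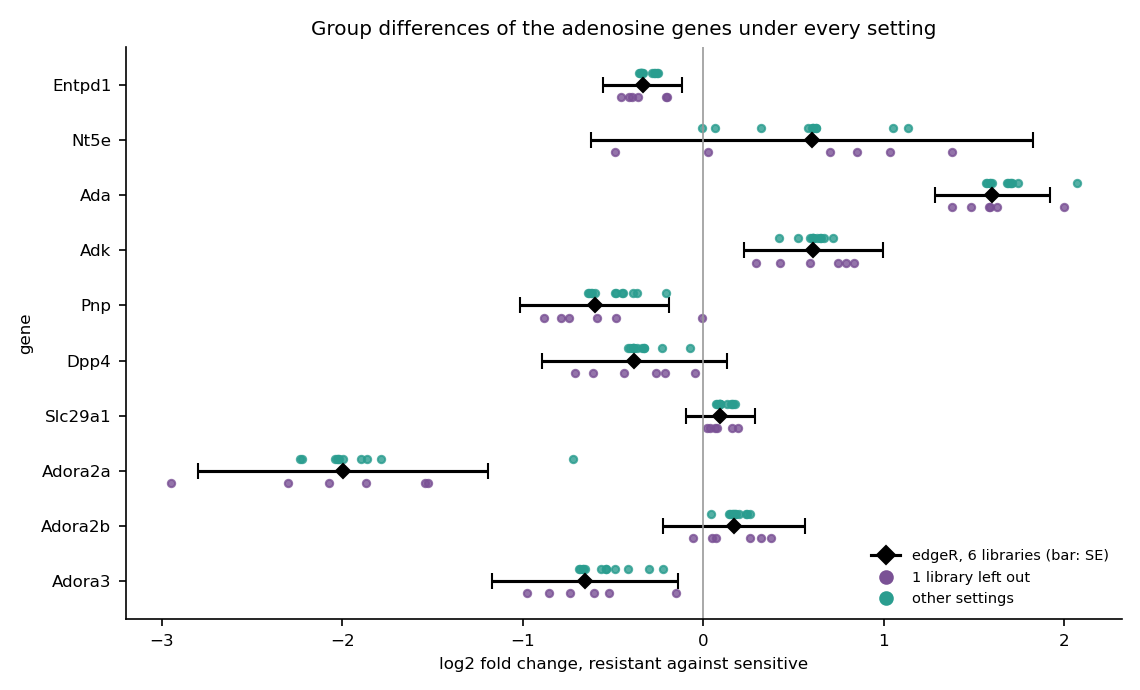
Log2 fold change of each adenosine gene (x axis, resistant against sensitive) in edgeR's fit of the 6 libraries (diamond, bar: standard error), with 1 library left out (lower dots) and under other settings (upper dots). The dots of Ada stay between 1.38 and 2.07 and those of Adora2a between -2.95 and -0.72, while those of Nt5e and Adora2b lie on both sides of 0.

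Markers of other cells were read beside these differences, since Ada is known to be high in lymphocytes and some macrophages and Adora2a in leukocytes. The 14 T and NK cell markers summed to 71.2 to 112.5 CPM in the sensitive libraries and to 63.1 to 174.5 CPM in the resistant ones, with 2 of 14 tested and Cd8a, Cd8b1, Trac and Klrb1c at 3 counts or fewer in every library. The 8 B and plasma cell markers summed to 3.69 to 11.2 CPM in the sensitive libraries and to 0.910 to 6.95 CPM in the resistant ones. Of these, 2 were tested, with 0 higher and 2 lower, and Mzb1 had 3 counts or fewer in every library. The macrophage and Kupffer cell sum ran from 25470 to 37640 CPM in the sensitive libraries and from 27730 to 31230 CPM in the resistant ones, with 7 of 18 markers higher and 11 lower. The 8 dendritic cell markers, of which 4 were tested and Siglech and Cd209a had 3 counts or fewer in every library, summed to between 31.4 and 50.1 CPM and to between 24.7 and 34.8 CPM. The 10 neutrophil markers summed to 5265, 6905 and 642 CPM in sensitive replicates 1, 2 and 3 and to 2106, 1560 and 337 CPM in the resistant ones, and 10 of 10 were lower in the fit. Of the 14 pan-endothelial markers 13 were lower in the fit, and they summed to 462, 292 and 537 CPM in sensitive replicates 1, 2 and 3 and to 449, 85.6 and 447 CPM in resistant replicates 1, 2 and 3. The low endothelial library, resistant replicate 2, was also the lowest for Adora2a and for the LSEC sum, at 1100 CPM. That library also had the highest sums of stellate cell and fibroblast (393.9 CPM), T and NK cell (174.5 CPM) and hepatocyte markers (156.3 CPM). Sensitive replicate 2 had the highest Adora2a, 5.17 CPM, with a pan-endothelial sum of 292 CPM. Resistant replicate 3 had 0.780 CPM of Adora2a with a pan-endothelial sum of 447 CPM. Of the 15 LSEC markers 11 were lower, with sums of 1238 to 1762 CPM in the sensitive libraries and of 1100 to 1541 CPM in the resistant ones. Erythroid markers, with 2 of 8 tested, were the list whose sums did not overlap, at 4.43 to 11.0 CPM in the sensitive group and 0.253 to 1.35 CPM in the resistant group. The hepatocyte sums, at 29.2 to 83.6 and 62.5 to 156.3 CPM, overlapped, with 8 of 8 tested markers higher. Stellate cell and fibroblast sums ran from 103.3 to 190.5 CPM in the sensitive libraries and from 105.1 to 393.9 CPM in the resistant ones. Of the 11 tested markers of that list 8 were higher and 3 lower. Epithelial and biliary sums ran from 12.3 to 292.3 and from 95.2 to 276.2 CPM, with 3 markers higher and 5 lower. The part of any of these cells in the values of Ada and Adora2a was not tested.

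The wider adenosine pathway was read from 23 further genes that make, move or remove adenosine, of which 15 were tested. In the fit 0 of the 15 passed the adjusted threshold, 0 passed an unadjusted p under 0.05 as higher and 1 as lower, beside 0.536% and 2.54% of all tested genes. By sign 5 were higher and 10 lower, with a median log2 fold change of -0.22 against 0.008 for all tested genes. Without sensitive replicate 3 there were 7 higher and 8 lower, with 1 higher and 4 lower past the unadjusted threshold. Without sensitive replicate 2 there were 3 higher and 12 lower, with 0 past it. Over all tested genes 971 passed it without sensitive replicate 3 and 609 without sensitive replicate 2, against 476 with all 6 libraries. The 1 lower gene past it in the fit of all libraries was Entpd3, a further ectonucleotidase. It had 17.2, 19.6 and 2.58 CPM in sensitive replicates 1, 2 and 3 and 4.39, 2.23 and 1.40 CPM in resistant replicates 1, 2 and 3. Its log2 fold change was -2.40 with a standard error of 0.80 (adjusted p 0.940), and its groups overlapped through sensitive replicate 3. Its highest libraries, sensitive replicates 1 and 2, were also those with the highest neutrophil marker sums given above, and their part in it was not tested. Acpp, an acid phosphatase that can also make adenosine from AMP, was also highest in sensitive replicates 1 and 2, at 6.77, 6.08 and 1.70 CPM against 2.46, 1.97 and 0.312 CPM, and a log2 fold change of -1.69 (standard error 0.82). Nt5c2, a cytosolic nucleotidase, stood at -0.64 on the log2 scale (standard error 0.37), and at -0.31 without sensitive replicate 2.

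Purine salvage and degradation was represented by 21 genes besides Ada, Adk and Pnp, of which 18 were tested. None of the 18 passed the adjusted threshold in edgeR's test, 0 passed the unadjusted one, 10 were higher, 8 lower, and the median was 0.02. Without sensitive replicate 3 there were 9 in each direction, with 2 lower past the unadjusted threshold. Over all tested genes 971 passed it in that fit, against 476 with all 6 libraries. Nt5c, a nucleotidase, at 60.4, 150.2 and 53.3 CPM against 69.8, 45.0 and 39.2 CPM, and Aprt, which salvages adenine, at 198.8, 486.8 and 156.2 CPM against 192.5, 228.3 and 171.4 CPM, were lower in the fit, and both had their highest value in sensitive replicate 2. Without that library the log2 fold change of Aprt turned from -0.63 to 0.16 and that of Nt5c went from -0.91 to -0.15. Ampd3, which deaminates AMP, went from 0.68 to 0.29.

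The list of ATP release and P2 receptors had 12 of 16 genes tested. Of these 0 passed either threshold, 4 were higher and 8 lower, and the median was -0.20. Without sensitive replicate 3 the list turned to 7 higher and 5 lower with a median of 0.028. Without sensitive replicate 2 it was 3 higher and 9 lower, with 3 of the lower genes past the unadjusted threshold. Over all tested genes 609 passed it without sensitive replicate 2, against 476 with all 6 libraries. P2rx1, an ATP-gated channel, had 2.19, 6.99 and 0.632 CPM in the sensitive group and 2.12, 0.455 and 0.624 CPM in the resistant group, with a log2 fold change of -1.78 that became -0.40 without sensitive replicate 2. P2ry1, an ADP receptor, was at -0.65 (standard error 0.45), and at -0.17 without sensitive replicate 1. The connexin Gja1, a channel for ATP, was at -0.39 (standard error 0.45), at -0.062 without sensitive replicate 1 and at -0.76 without sensitive replicate 2.

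The machinery through which the receptors signal, 16 G proteins, adenylate cyclases and kinase subunits, was tested in full. In the fit of all libraries 15 of 16 were higher and 1 lower, with a median of 0.24, and 0 passed either threshold. Without sensitive replicate 2 the count was 9 higher and 7 lower with a median of 0.03, so the lean toward higher values rested on that library. Gnas, the alpha subunit of Gs, had 7.50 CPM there and between 35.8 and 52.2 CPM in the other 5 libraries, and its log2 fold change went from 0.72 to 0.28 without it. The cyclases Adcy6 and Adcy3 went from 0.62 to 0.13 and from 0.47 to 0.13.

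Genes known to answer cAMP, the messenger that Adora2a and Adora2b raise, were read from a list of 18, of which 15 were tested. None passed the adjusted threshold in edgeR's test, while at an unadjusted p under 0.05 there were 3 lower, Sik1, Pde4d and Rgs2, and 0 higher, beside 2.54% and 0.536% of all tested genes. By sign 10 were lower and 5 higher with a median of -0.13. Sik1, a kinase that cAMP induces and that restrains CREB coactivators, stood at 35.0, 29.3 and 48.8 CPM in sensitive replicates 1, 2 and 3 and at 28.6, 17.4 and 15.9 CPM in resistant replicates 1, 2 and 3. Its groups did not overlap, with a log2 fold change of -0.94, a standard error of 0.30 and an adjusted p of 0.940. Il10, the anti-inflammatory cytokine that adenosine is known to raise in macrophages, was at 10.4, 7.39 and 6.13 CPM against 6.13, 2.02 and 0.468 CPM, with sensitive replicate 3 and resistant replicate 1 at nearly the same level and a log2 fold change of -1.55 (standard error 0.78). Pde4d, which degrades cAMP, stood at -1.34 on the log2 scale (standard error 0.53), and its groups overlapped. Rgs2, a regulator of G protein signaling, had 171.0, 170.3 and 167.0 CPM in the sensitive libraries and 135.0, 55.3 and 104.2 CPM in resistant replicates 1, 2 and 3. Its lowest value was in resistant replicate 2, which had the lowest pan-endothelial and the highest stellate cell and fibroblast sum. The part of any cell type in it was not tested. Without resistant replicate 1, 5 lower genes of the list passed the unadjusted threshold, beside 602 of all tested genes. Without resistant replicate 2 none of the list did, beside 224 of all tested genes. Without resistant replicate 3 also 0 did, beside 166 of all tested genes, with 8 higher and 7 lower in the list. With all 6 libraries 476 of all tested genes passed it.

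The 15 hypoxia response genes, all tested, stood at 9 higher and 6 lower with a median of 0.19 and 0 past either threshold, and at 8 and 7 with a median of 0.03 without sensitive replicate 2. Without resistant replicate 1 they stood at 11 higher and 4 lower with a median of 0.31. In that fit 2 higher genes of the list passed the unadjusted threshold, beside 602 of all tested genes, against 476 with all 6 libraries. Without resistant replicate 3 the list stood at 7 higher and 8 lower with a median of -0.001. Adm, a vasodilator peptide gene, had 43.8, 47.2 and 47.9 CPM in the sensitive libraries and 40.1, 10.1 and 32.8 CPM in the resistant ones. The groups did not overlap, but the resistant spread was wide. The log2 fold change was -0.84 with a standard error of 0.45, or -0.45 without resistant replicate 2. That library had the lowest pan-endothelial and the highest stellate cell and fibroblast sum, and the part of any cell type was not tested. Egln3, an oxygen sensor that HIF induces, was at -0.50 (standard error 0.36) and Ndrg1 at -0.41 (standard error 0.27). Adm, Egln3 and Ndrg1, named for the size of their change, were lower, while 9 of the 15 genes were higher. Groups did not overlap for 1 gene higher, P4ha1, and 1 lower, Adm, beside 5.01% and 3.38% of all tested genes. P4ha1 had 130.8, 117.0 and 118.3 CPM against 131.6, 170.9 and 193.8 CPM, with a log2 fold change of 0.38 (standard error 0.22). Adora2b, the adenosine receptor known to follow hypoxia, and Nt5e, the enzyme known to do so, had no group difference outside their spread in the same libraries.

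**Figure D5:**
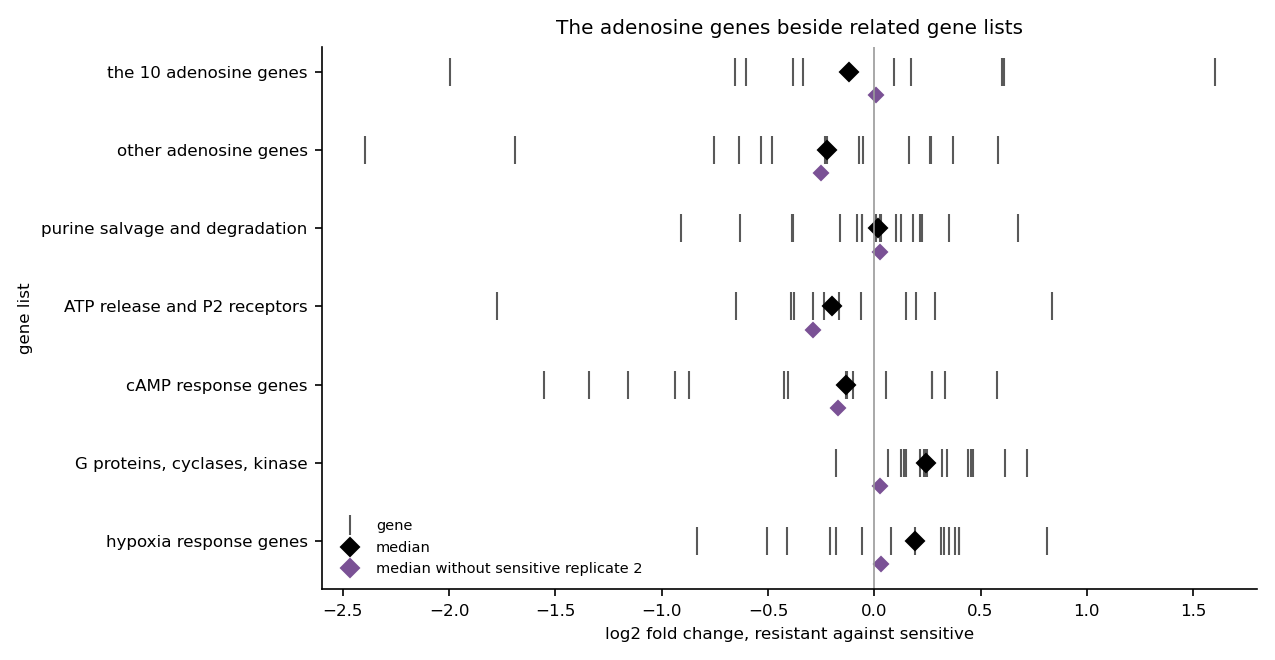
Log2 fold change (x axis, resistant against sensitive) of every tested gene (ticks) of the 10 adenosine genes and of 6 related lists, with the median of each list in all libraries (black) and without sensitive replicate 2 (purple). Ada at 1.60 lies outside every value of the other lists on the higher side, and the median of the G proteins, cyclases and kinase goes from 0.24 to 0.03 without that library.

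The genes whose pattern over the 6 libraries was most like that of Ada were sought among 9554 tested genes with an average log2 CPM of at least 3. Fbxl18, an F-box protein of ubiquitin ligases, came first with a Pearson r of 0.991 of log2 CPM, followed by Mib2, a ubiquitin ligase, at 0.982 and Cisd2, an iron-sulfur protein of the endoplasmic reticulum, at 0.967. In all, 20 genes had an r over 0.9, with 6 points that share the library and fall into 2 groups, so the coefficients are a description. Fbxl18 had 22.1, 22.2 and 21.6 CPM in sensitive replicates 1, 2 and 3 and 31.1, 27.5 and 28.5 CPM in resistant replicates 1, 2 and 3. What they shared with Ada was the split between the groups, the contrast on which Ada was chosen, and not its size, since the log2 fold changes of Fbxl18, Mib2 and Cisd2 were 0.33, 0.44 and 0.22 against 1.60 for Ada.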

How the data were processed

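RNA-seq counts of 6 mouse LSEC libraries were used, 3 per group, with groups and replicate numbers taken from the sample titles. Per the labels' processing notes, reads were aligned with HISAT2 2.0.5 and counted with featureCounts 1.5.0-p3. The authors deposited counts per gene as whole numbers without normalization. The deposited FPKM values were checked to be each count divided by the library total and by 1 length per gene. A table of the authors' own comparison holds fold changes and p-values and was not used. The labels name ribosomal RNA depletion, and the paper's Methods name poly(A) selection as well. The submitters' notes name the build mm9. The count table holds no coordinates, and the Ensembl identifiers were looked up in GENCODE M21 for the GRCm38 positions given here.

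Genes were kept by filterByExpr (15474 genes), normalized by TMM and tested with the quasi-likelihood test of edgeR 4.0.16 in R 4.3.3, with robust moderation, two-sided, no covariate, and Benjamini-Hochberg adjustment over all tested genes with a threshold of 0.05. Standard errors are those implied by the F statistic. Total counts were between 17599326 and 20726684. The fits were tested on simulated data. Libraries of a group differed by more than sampling noise.

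The 10 genes and all lists were chosen with earlier results of these data known. Genes named beyond them are at most 3 per list, by absolute log2 fold change among those whose log2 CPM averaged 1 or more, and the 3 genes most like Ada. Rgs2 and P4ha1 were named after their values were seen. Alternatives were other scalings and filters, DESeq2 1.42.0, limma 3.58.1 (voom, sample weights, log2(FPKM + 1) and log2(FPKM + 0.1)), a replicate block, and each library left out. The counts of each list without single libraries and under other scalings were added after seeing the data.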

Additional observations from a re-analysis of the deposited data

How the results depend on the processing

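DESeq2 called 24 genes and 1 of the 10 adenosine genes at an adjusted p under 0.05, limma-voom with sample weights called 1 gene and 1 adenosine gene, in both cases with Ada among them (log2 fold change 1.59 and 2.07), and leaving out the filter called 2 genes, against 0 in each of the other alternatives. The number of genes with an unadjusted p under 0.05 went from 476 to 732 with DESeq2, to 1484 with sample weights and to 2036 without the filter, and lay between 166 and 971 with 1 library left out, with 224 without resistant replicate 2. The lowest was without resistant replicate 3 and the highest without sensitive replicate 3. The adjusted p of Ada lay between 0.0198 and 1.00 over the 18 alternatives. The log2 fold change turned for Nt5e (-0.009 with sample weights, and from -0.49 without resistant replicate 3 to 1.38 with 1 library left out), Adora2b (from -0.058 without sensitive replicate 3 to 0.37) and Aprt (0.046 with sample weights, and from -0.945 to 0.16 without sensitive replicate 2), and the cause was not tested. The other values of the 31 genes named by the rule, 546 of 553 with the same sign and the same side of the threshold, did not change the call. The filter on 10 counts in every library left Adora2a and Nt5e untested.

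With the replicate number as a replicate block, Ada was at 1.69 and 467 genes passed an unadjusted p under 0.05, and no call changed. The deviations of same-numbered libraries correlated at -0.0009, 0.03 and 0.19. With 3 libraries per group these values cannot show whether same-numbered libraries were processed together. The biological coefficient of variation was 42.2%. The standard errors of Nt5e, Dpp4, Slc29a1 and Adora2b exceeded the size of their log2 fold changes.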
